A study of Mus musculus with 10 samples.

Results

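Messenger RNA of 48 nuclear-encoded mitochondrial respiratory chain subunits was followed in mouse liver after ethanol gavage. The genes were taken by name: 34 subunits of complex I, 4 of complex II, 4 of complex III, 5 of complex IV, and Cycs, which encodes cytochrome c. Probes were matched to symbols through the RefSeq accession on the array, and where a gene had several probes the one with the highest mean signal was used. Of the 48 genes, 47 had a probe and 45 were tested, among 26102 genes tested in all. Ndufa11 had no probe matched through an accession. Ndufs1 (usable on 0 maltose arrays, 3 at 5 g/kg and 2 at 7 g/kg) and Ndufa10 (on 2, 4 and 1) lacked usable spots in at least 1 group, because the scanner software had marked them as outliers. The tested genes were 31 of complex I, all of complexes II, III and IV, and Cycs.

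Livers came from male C57BL/6N mice given by gavage either 5 g/kg ethanol (4 arrays), 7 g/kg ethanol (3 arrays) or, as control, maltose (3 arrays). The maltose was matched in calories to the 5 g/kg dose, so that no group received neither sugar nor ethanol and the 7 g/kg dose had no control of equal calories. Each array carried liver RNA in Cy5 and a commercial mixed mouse total RNA in Cy3 as the common reference, for which the labels also give liver as tissue. The labels state no age and no time between gavage and collection, and do not say whether arrays of a group came from separate mice, so p-values measure the spread between arrays, which may be technical.

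The respiratory chain sits in the inner mitochondrial membrane. Complex I takes electrons from NADH and complex II from succinate; ubiquinone carries them to complex III and cytochrome c to complex IV, which reduces oxygen, and complexes I, III and IV pump protons that drive ATP synthesis. The liver oxidises ethanol to acetate, which produces NADH, and mitochondrial NADH is reoxidised at complex I. The subunits studied here are made in the cytosol and imported; those encoded by mitochondrial DNA were not among them.

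Values are log2 ratios of liver over reference, normalised within each array; they compare arrays for 1 probe and not levels between genes. Changes were tested with limma in 1 fit over all 10 arrays, and a gene was said to have risen or fallen when its Benjamini-Hochberg adjusted p over all genes tested was under 0.05. Both ethanol groups were set against the same 3 maltose arrays, so the 2 comparisons are not independent. In a bulk sample, fewer cells of a type and less RNA per cell cannot be told apart.

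The liver label was checked on the brightness of the Cy5 channel. Brightness depends on the probe as well as on the RNA, so this is a rough check. Hepatocyte markers lay at a median percentile of 99.8 among all probes (9 genes, 90.2 to 100) and the respiratory chain subunits at 97.5. Skeletal muscle and heart markers lay at 53 (8 genes, 10.9 to 97.1, with Myh6 highest) and exocrine pancreas markers at 44.2 (6 genes, 26.5 to 95, with Ctrb1 highest), so that single probes of other tissues' markers were brighter than the dimmest hepatocyte marker. Outlier spots made up 2.42% to 5.83% of an array, and no spot was saturated in the Cy5 channel. Saturation in the Cy3 channel was not counted. The arrays lay on 4 slides, none of which held 1 group alone.

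At the threshold used, 1 respiratory chain transcript changed at 7 g/kg ethanol and 0 at 5 g/kg. At 7 g/kg 1 of 45 tested subunits fell, Ndufa6, and 0 rose, whereas 9.03% of all genes tested changed in either direction and 4.36% fell. At 7 g/kg 10 of 45 subunits had an unadjusted p under 0.05. So did 5251 of all 26102 genes and 1713 of the 4798 genes in the subunits' signal range. Of the 10, 9 were lower (20% of 45), against 9.66% of all genes and 17.2% of genes in that range. At 5 g/kg 0 of 45 changed, against 3.8% of all genes. An unadjusted p under 0.05 was seen for 2 subunits, against 4047 of all 26102 genes. Between 7 and 5 g/kg 0 changed, against 1.57% of all genes. There 1 subunit had an unadjusted p under 0.05, against 2812 of all 26102 genes. The subunits are bright, with mean log2 signals from 9.9 to 14.8 (median 12.86). Among the 4798 genes tested within that range, 20.2% changed at 7 g/kg and 9.25% at 5 g/kg. These genes share the range but were not matched in brightness, with a median signal of 10.85.

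Most subunits lay slightly below maltose, by amounts that passed the test only for Ndufa6 at 7 g/kg. Relative to maltose, 33 of 45 subunits lay below 0 at 7 g/kg, against 47.4% of all genes. Their median log2 change was −0.079 (range −0.47 to 0.69), where the median of all genes was 0.012. At 5 g/kg 32 of 45 lay below 0, against 49.4% of all genes. Their median was −0.076 (range −0.25 to 0.34), where the median of all genes was 0.003. By array, the median over the 45 subunits, relative to the maltose mean of each gene, was 0.059, −0.060 and −0.011 on the maltose arrays, −0.049, −0.065, −0.094 and −0.055 on 5 g/kg arrays, and −0.099, −0.110 and −0.041 on 7 g/kg arrays. The 2nd maltose array thus lay within the range of the ethanol arrays, and the medians of the groups overlapped. Without the 1st maltose array, the highest of all, the median change was −0.031 at 7 g/kg and −0.034 at 5 g/kg. Within the slides that held both groups it was −0.018 and −0.046 at 7 g/kg, where all genes had −0.022 and 0.012, and −0.044, −0.101 and −0.013 at 5 g/kg, where all genes had 0.006, 0.004 and 0.001.

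Most changes were bounded closely. At 7 g/kg the 95% interval of the change lay within 1.5-fold in either direction for 43 of the 45 subunits. It did so for 79.4% of all genes tested and 68% of genes in the subunits' signal range. At 5 g/kg it did so for 44 subunits, against 87% of all genes. The exceptions were Ndufa6 and Ndufa8 at 7 g/kg and Ndufa8 at 5 g/kg. Arrays of 1 group differed less for subunits than for other genes, with a median within-group SD of 0.090 against 0.137 over all genes tested. An absolute log2 change above 0.5 was seen for 1 subunit at 7 g/kg (2.22%), against 7.47% of all genes.

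**Figure D1:**
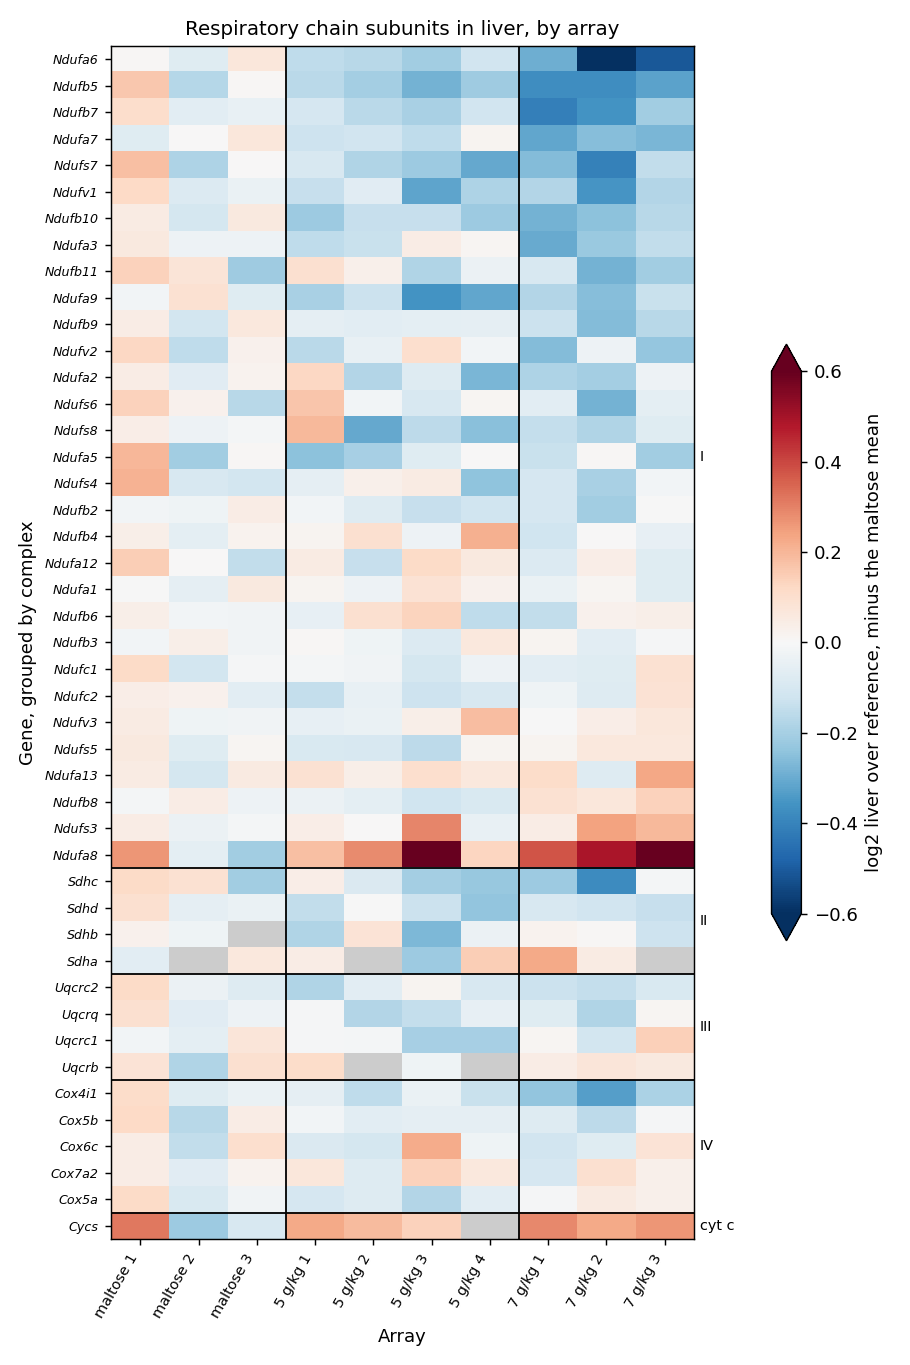
Log2 ratio of liver over reference minus the maltose mean of the gene (colour) for the 45 tested subunits (down, by complex) on the 10 arrays (across, maltose, 5 g/kg and 7 g/kg ethanol); grey cells have no usable spot. Ndufa6 is the lowest row on the 2nd and 3rd 7 g/kg arrays and Ndufa8 the highest row, while most cells stay pale.

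Counting subunits whose arrays did not overlap between groups gave more lower than higher ones. At 7 g/kg, 13 of 45 (28.9%) lay lower on every ethanol array than on every maltose array. This held for 12.3% of all genes and 21.1% of genes in the subunits' signal range. Another 2 subunits lay higher, against 13.1% of all genes and 1109 of the 4798 genes in that range. At 5 g/kg, 5 of 45 (11.1%) lay lower without overlap, against 7.65% of all genes and 12.9% of genes in the subunits' signal range. At that dose 0 lay higher, against 9.28% of all genes and 875 of the 4798 genes in that range. The 5 lower ones were Ndufa6, Ndufa9, Ndufb7, Ndufb8 and Ndufb10, all of complex I, which made up 31 of the 45 tested subunits. The 13 at 7 g/kg comprised 10 subunits of complex I, Sdhd, Uqcrc2 and Cox4i1; the 2 higher ones were Ndufa8 and Ndufb8. Ndufb8, a membrane arm subunit, thus lay on either side of maltose at the 2 doses, at −0.08 at 5 g/kg (adjusted p = 0.761) and 0.10 at 7 g/kg (adjusted p = 0.655).

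Complex I had the lowest median of the 4 complexes at the higher dose. Its 31 tested subunits had a median change of −0.113 at 7 g/kg, with 25 below 0, and −0.057 at 5 g/kg, with 22 below 0. The 14 subunits of the matrix arm, which holds the NADH site and the iron-sulfur chain, had a median of −0.138 at 7 g/kg and −0.097 at 5 g/kg. The 17 of the proton-pumping membrane arm had −0.033 and −0.057. Whether the arms or the complexes differed from each other was not tested.

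Ndufa6, an accessory subunit of the matrix arm that binds the mitochondrial acyl carrier protein, fell at 7 g/kg. Its log2 ratios were 0.25, 0.17 and 0.31 on the maltose arrays, 0.10, 0.08, 0.04 and 0.13 on 5 g/kg arrays, and −0.04, −0.36 and −0.26 on 7 g/kg arrays. The 3 groups did not overlap, with maltose highest and 7 g/kg lowest. The change at 7 g/kg was −0.47 (SE 0.106, 95% interval −0.70 to −0.24, limma adjusted p = 0.0118), or 1.38-fold lower in 7 g/kg than in maltose livers. At 5 g/kg it was −0.16 (adjusted p = 0.504), and between 7 and 5 g/kg it was −0.31 (adjusted p = 0.2). With slide as a block the change at 7 g/kg was −0.43 (adjusted p = 0.0539), and within the 2 slides that held both groups it was −0.57 and −0.22. Leaving out the 3rd maltose array gave −0.44 (adjusted p = 0.0516) and leaving out the 2nd 7 g/kg array −0.40 (adjusted p = 0.0573).

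Ndufa9, a matrix arm subunit near the ubiquinone site, had the smallest p of the complex at 5 g/kg. Its ratios were −0.02, 0.09 and −0.08 on the maltose arrays, −0.20, −0.14, −0.36 and −0.32 on 5 g/kg arrays, and −0.18, −0.26 and −0.14 on 7 g/kg arrays. All ethanol arrays lay below all maltose arrays and the doses overlapped. The change was −0.25 at 5 g/kg (SE 0.0968, adjusted p = 0.214) and −0.19 at 7 g/kg (adjusted p = 0.351).

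Ndufb5, Ndufb7 and Ndufa8 missed the threshold at 7 g/kg by little and are described because of it, a choice made after their values were seen. Ndufb5, of the membrane arm, had 0.35, 0.01 and 0.19 on the maltose arrays, 0.02, −0.02, −0.10 and −0.03 on 5 g/kg arrays, and −0.19, −0.19 and −0.14 on 7 g/kg arrays. The 7 g/kg arrays lay below all others, and the change was −0.35 (SE 0.106, adjusted p = 0.0517). Ndufb7, on the intermembrane space side of the same arm, had 0.25, 0.08 and 0.10 on the maltose arrays, 0.04, −0.02, −0.05 and 0.03 on 5 g/kg arrays, and −0.27, −0.22 and −0.07 on 7 g/kg arrays. Its 3 groups did not overlap either, and the change at 7 g/kg was −0.33 (SE 0.101, adjusted p = 0.06).

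Ndufa8, a further intermembrane space side subunit, lay higher at 7 g/kg and had the widest range over the arrays of all 45. Its ratios were 0.18, −0.14 and −0.29 on the maltose arrays, 0.10, 0.20, 0.69 and 0.04 on 5 g/kg arrays, and 0.29, 0.41 and 1.11 on 7 g/kg arrays. The 7 g/kg arrays lay above the maltose arrays, with 1 of them far above the others, and the 5 g/kg arrays overlapped both. The change was 0.69 at 7 g/kg (SE 0.21, 95% interval 0.24 to 1.14, adjusted p = 0.0573) and 0.34 at 5 g/kg (adjusted p = 0.459). Without the 3rd 7 g/kg array it was 0.43 (adjusted p = 0.222), and with median centring in place of loess it was 0.76 (adjusted p = 0.0231), which made the split 1 subunit higher and 1 lower. The gene's other probe, of almost equal signal, gave 0.16 at 7 g/kg and 0.09 at 5 g/kg. Over the 14 other probes of 11 members with a value at 7 g/kg, 10 had the sign of the probe used, the median gap was 0.088 and that of Ndufa8, 0.53, was the largest.

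**Figure D2:**
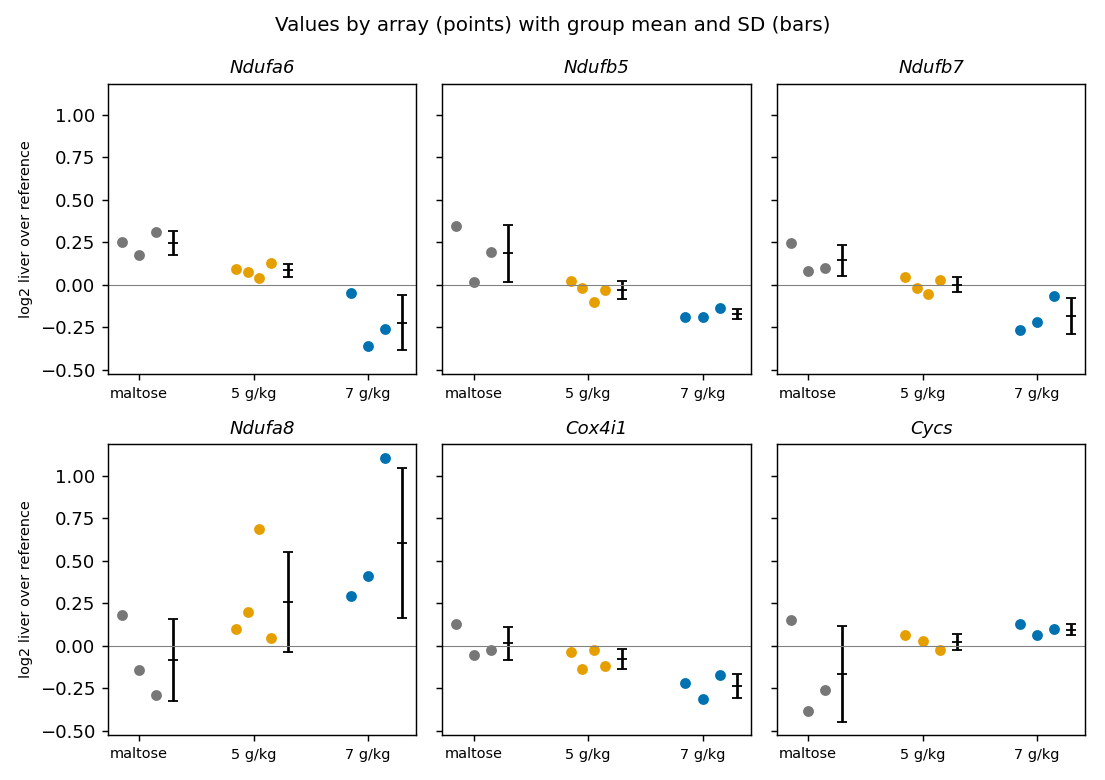
Log2 ratio of liver over reference (y axis) on each array (points) by dose (x axis) for 6 subunits, with the group mean and SD (bars; 3 maltose arrays, 4 at 5 g/kg and 3 at 7 g/kg, with 3 at 5 g/kg for Cycs). The 7 g/kg points of Ndufa6, Ndufb5, Ndufb7 and Cox4i1 lie below all maltose points, and those of Ndufa8 above them.

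The catalytic subunits of complex I did not pass. Ndufv1, which binds FMN and takes electrons from NADH, stood at −0.24 at 7 g/kg (adjusted p = 0.238) and −0.18 at 5 g/kg. Ndufs7, which holds the last iron-sulfur cluster before ubiquinone, stood at −0.27 at 7 g/kg (adjusted p = 0.21) and −0.20 at 5 g/kg. The iron-sulfur subunits Ndufv2 and Ndufs8 stood at −0.17 and −0.13 at 7 g/kg, and Ndufs3, at 0.16, was the 1 core subunit above 0. Of the accessory subunits, Ndufa7 (−0.28), Ndufb10 (−0.23) and Ndufa3 (−0.22) followed at 7 g/kg, with adjusted p of 0.1, 0.189 and 0.232. Ndufb11, Ndufb9, Ndufa2, Ndufs6, Ndufa5, Ndufs4 and Ndufb2 lay between −0.20 and −0.10 at 7 g/kg. The remaining 11, Ndufa1, Ndufa12, Ndufa13, Ndufb3, Ndufb4, Ndufb6, Ndufb8, Ndufc1, Ndufc2, Ndufs5 and Ndufv3, lay between −0.06 and 0.10.

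Complex II, the succinate dehydrogenase of the citric acid cycle, had a median of −0.074 at 7 g/kg and −0.110 at 5 g/kg over its 4 genes. The flavoprotein gene Sdha had usable spots on 7 arrays, with −0.34 and −0.22 on maltose arrays, −0.24, −0.50 and −0.14 on 5 g/kg arrays, and −0.06 and −0.23 on 7 g/kg arrays. All its groups overlapped, and its change was 0.14 at 7 g/kg (adjusted p = 0.722, n = 2 and 2) and −0.01 at 5 g/kg (n = 3 and 2). Its other probe, dimmer but usable on 9 arrays, gave 0.53 at 7 g/kg and 0.28 at 5 g/kg. The iron-sulfur gene Sdhb stood at −0.03 and −0.10 at these doses. The membrane anchor gene Sdhc had 0.26, 0.24 and −0.06 on maltose arrays, 0.19, 0.06, −0.06 and −0.08 on 5 g/kg arrays, and −0.07, −0.23 and 0.13 on 7 g/kg arrays, which overlapped throughout; its change was −0.20 at 7 g/kg (adjusted p = 0.441). Sdhd, the other anchor, had 0.32, 0.17 and 0.18 on maltose arrays, 0.07, 0.22, 0.09 and −0.01 on 5 g/kg arrays, and 0.12, 0.11 and 0.08 on 7 g/kg arrays. Its 7 g/kg arrays lay below the maltose arrays while its 5 g/kg arrays overlapped them, and its changes were −0.12 (adjusted p = 0.609) and −0.13 (adjusted p = 0.588).

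Complex III, which passes electrons from ubiquinol to cytochrome c, had a median of −0.032 at 7 g/kg and −0.087 at 5 g/kg over 4 genes, none of which encodes a redox subunit. Uqcrc1, a core protein, had −0.12, −0.16 and −0.03 on maltose arrays, −0.11, −0.12, −0.31 and −0.30 on 5 g/kg arrays, and −0.09, −0.22 and 0.04 on 7 g/kg arrays. These overlapped, with a change of 0.02 at 7 g/kg (adjusted p = 0.969) and −0.10 at 5 g/kg (adjusted p = 0.715). The companion core protein gene Uqcrc2 had 0.26, 0.11 and 0.07 on maltose arrays, −0.04, 0.08, 0.16 and 0.05 on 5 g/kg arrays, and 0.02, 0.00 and 0.06 on 7 g/kg arrays. Its 7 g/kg arrays lay below the maltose arrays by a narrow margin, and its change was −0.12 (adjusted p = 0.593). The small subunit genes Uqcrb and Uqcrq stood at 0.06 and −0.08 at 7 g/kg.

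Complex IV, cytochrome c oxidase, had a median of −0.036 at 7 g/kg and −0.048 at 5 g/kg over 5 genes. Cox4i1, whose product is a regulatory subunit, had 0.13, −0.06 and −0.03 on maltose arrays, −0.04, −0.14, −0.02 and −0.12 on 5 g/kg arrays, and −0.22, −0.32 and −0.17 on 7 g/kg arrays. The 7 g/kg arrays lay below all others, with a change of −0.25 (SE 0.1, adjusted p = 0.16), against −0.09 at 5 g/kg. Cox5a had 0.15, −0.06 and 0.02 on maltose arrays, −0.07, −0.04, −0.14 and −0.03 on 5 g/kg arrays, and 0.03, 0.09 and 0.07 on 7 g/kg arrays. It lay between the maltose arrays at 7 g/kg, with a change of 0.03 (adjusted p = 0.936), against −0.10 at 5 g/kg (adjusted p = 0.675). Cox5b, Cox6c and Cox7a2 stood at −0.08, −0.04 and 0.01 at 7 g/kg.

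Cycs, the mobile carrier between complexes III and IV that also triggers caspase activation when released from mitochondria, lay on the other side of 0. It had 0.15, −0.39 and −0.26 on maltose arrays, 0.06, 0.03 and −0.03 on the 3 usable 5 g/kg arrays, and 0.12, 0.06 and 0.10 at 7 g/kg. The ethanol arrays lay close together and within the spread of the maltose arrays. Its change was 0.26 at 7 g/kg (SE 0.131, adjusted p = 0.299) and 0.19 at 5 g/kg (adjusted p = 0.573). Leaving out 1 array moved the change between 0.15 and 0.42 at 7 g/kg and between 0.08 and 0.345 at 5 g/kg, in each case lowest without the 2nd maltose array and highest without the 1st. A dimmer probe of the gene, usable on all 10 arrays, gave 0.05 at 7 g/kg and 0.04 at 5 g/kg.

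**Figure D3:**
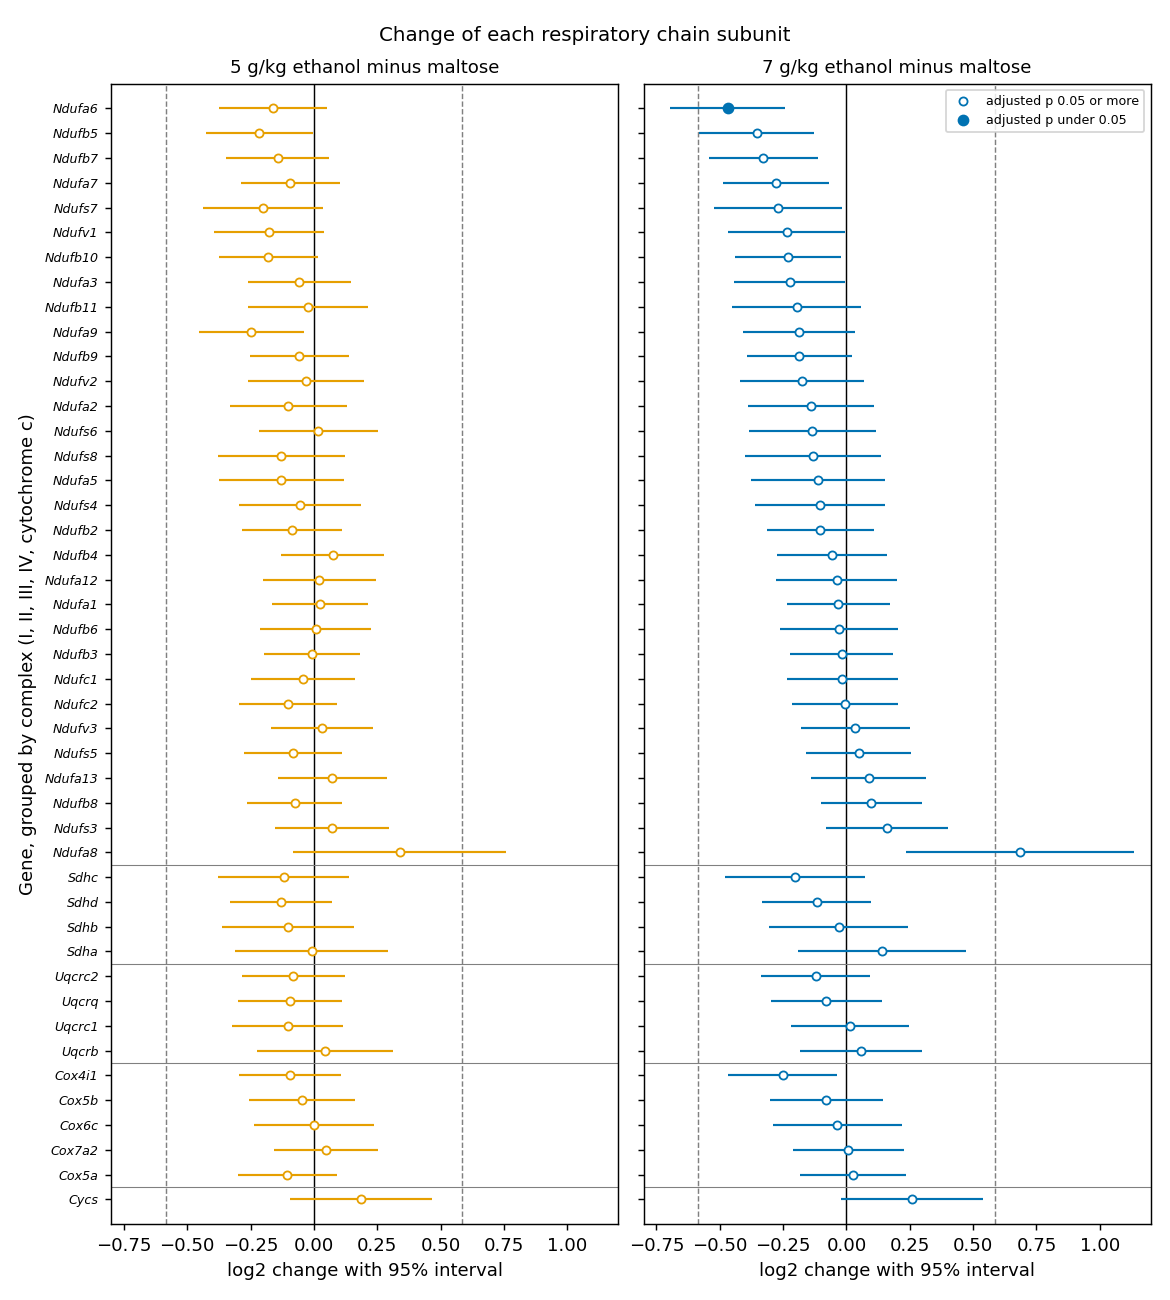
Log2 change with its 95% interval (x axis) of each of the 45 tested subunits (down, by complex) at 5 g/kg (left) and 7 g/kg ethanol (right), both minus maltose; dashed lines mark 1.5-fold and the filled point the 1 subunit with an adjusted p under 0.05. Intervals of 44 subunits at 5 g/kg and of 43 at 7 g/kg lie between the dashed lines.

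Promoters were set beside these changes for the subunits with the lowest and the 2 highest changes at 7 g/kg on the probes used, chosen after their values were seen. RefSeq sequence of GRCm38.p6, running 250 bases upstream of the gene start to 50 downstream, was held for 39 of the 48 genes. On either strand, GCGCATGC, a short form of the NRF1 motif, occurred in 6 of 39 (15.4%), against 3.05% of 27025 promoters of all genes. The GABPA motif CCGGAAG occurred in 6 (15.4%, against 9.93%) and the YY1 motif AAGATGG in 7 (17.9%, against 7.28%), and at least 1 of the 3 in 18 (46.2%, against 18.6%). Ndufa6 (chr15:82354242-82354541, minus strand), Ndufa8 (chr2:36049289-36049588, minus strand) and Cycs (chr6:50566520-50566819, minus strand) each held 1 NRF1 match, shown in capitals as GCATGCGC, its reverse complement, 83, 8 and 60 bases before the gene start.
Ndufa6: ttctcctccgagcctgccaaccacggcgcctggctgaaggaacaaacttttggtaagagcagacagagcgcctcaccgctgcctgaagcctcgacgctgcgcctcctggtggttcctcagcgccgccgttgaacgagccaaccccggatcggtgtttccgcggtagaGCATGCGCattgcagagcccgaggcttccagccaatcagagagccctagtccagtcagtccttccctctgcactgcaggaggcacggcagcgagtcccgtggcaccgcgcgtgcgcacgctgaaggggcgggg
Ndufa8: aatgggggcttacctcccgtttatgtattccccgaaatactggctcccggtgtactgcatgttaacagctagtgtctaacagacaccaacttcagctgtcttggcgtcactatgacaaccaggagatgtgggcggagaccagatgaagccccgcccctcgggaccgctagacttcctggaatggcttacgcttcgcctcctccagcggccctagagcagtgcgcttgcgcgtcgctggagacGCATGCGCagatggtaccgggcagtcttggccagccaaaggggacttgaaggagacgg
Cycs: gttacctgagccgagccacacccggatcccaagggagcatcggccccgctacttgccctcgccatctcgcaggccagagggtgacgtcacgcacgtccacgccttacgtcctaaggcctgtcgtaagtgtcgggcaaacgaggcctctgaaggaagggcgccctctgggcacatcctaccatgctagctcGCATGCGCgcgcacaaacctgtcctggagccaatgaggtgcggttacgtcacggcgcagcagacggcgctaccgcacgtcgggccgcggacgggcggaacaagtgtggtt
The match thus stood in front of the subunit that fell and of both whose values were highest on the probes used, so that members with it covered −0.47 to 0.69 at 7 g/kg. The 5 tested members with the match had a median change of 0.015, and the 32 without it −0.091. A match describes letters and no binding was measured.

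Further subunits of the same complexes were examined beside the 48. Of 3 further complex I genes and 6 further complex IV genes 0 changed at either dose, with medians of −0.124 and −0.123 at 7 g/kg and 0 genes at an unadjusted p under 0.05. Of 5 further complex III genes, Uqcrfs1, which encodes the Rieske iron-sulfur protein, fell at 7 g/kg by 0.43 (SE 0.124, adjusted p = 0.0453). Its ratios were 0.76, 0.48 and 0.41 on maltose arrays, 0.36, 0.22, 0.51 and 0.34 on 5 g/kg arrays, and 0.08, 0.00 and 0.28 on 7 g/kg arrays, the last group below all maltose arrays. ATP synthase, which uses the proton gradient, had 0 of 17 tested genes changed at either dose and 16 below 0 at each, with medians of −0.086 at 7 g/kg and −0.091 at 5 g/kg; 1 had an unadjusted p under 0.05 at 7 g/kg and 0 at 5 g/kg. Among 9 isoforms of restricted tissues, Cox6b2, the testis form of a complex IV subunit, fell by 1.17 at 7 g/kg (adjusted p = 0.000772). These 9 genes were dim, with mean log2 signals of 6.5 to 8.3 (median 7.51), against a median of 8.12 over all genes tested. Whether the Cox6b2 probe reads this isoform in liver was not tested.

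Assembly factors of the chain showed larger single changes, with 3 of 40 higher and 3 lower at 7 g/kg (15% in all, median −0.075). For this list and those that follow, the share of all genes that changed was 9.03% at 7 g/kg and 3.8% at 5 g/kg. No list was tested as a set. Cox19, needed for complex IV assembly in yeast, rose at both doses, by 0.88 at 7 g/kg (adjusted p = 0.000157) and 0.86 at 5 g/kg (adjusted p = 0.000296). Its ratios were −0.88, −0.63 and −0.84 on maltose arrays and 0.01 to 0.25 over all 7 ethanol arrays. Tmem126b, of the complex I intermediate assembly complex, fell by 0.54 at 7 g/kg (adjusted p = 0.00598). In ubiquinone synthesis 1 of 11 genes rose and 2 fell at 7 g/kg: Coq8b, an atypical kinase, rose by 1.29 (adjusted p = 0.000153), with 0.86, 1.15 and 0.59 at 7 g/kg against −0.19, −0.50 and −0.58 in maltose, while Coq9 fell by 0.53 (adjusted p = 0.00543). Coq8b stood at 0.01 at 5 g/kg, and the difference between the doses passed (1.28, adjusted p = 0.000491). Of 6 other donors of electrons to ubiquinone, Etfb, a subunit of the electron transfer flavoprotein, fell by 0.55 at 7 g/kg (adjusted p = 0.00958).

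The citric acid cycle and pyruvate dehydrogenase genes, which feed NADH and succinate to the chain, had larger changes in both directions. Of 17 tested, 4 rose and 2 fell at 7 g/kg, and 1 rose and 0 fell at 5 g/kg, where 4 had an unadjusted p under 0.05. Fh1, fumarase, which acts on the product of complex II, had −0.91 and −0.77 on 2 maltose arrays, 0.04, 0.22, 0.08 and −0.10 on 5 g/kg arrays, and 0.72 and 0.55 on 2 of the 7 g/kg arrays. It rose by 1.47 at 7 g/kg (SE 0.143, adjusted p = 5.4e-05) and 0.90 at 5 g/kg (adjusted p = 0.00169). Idh2, the mitochondrial NADP isocitrate dehydrogenase, fell by 0.88 at 7 g/kg (adjusted p = 9.9e-05). To complete the count, the others were Pdhb (1.39), Cs (0.82) and Dlat (0.76), which rose, and Suclg1 (−0.50), which fell.

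Regulators of mitochondrial biogenesis had 0 of 20 higher and 3 lower at 7 g/kg (median −0.177), and 0 changed at 5 g/kg (median −0.130; 6 at an unadjusted p under 0.05, all lower). Esrra, a nuclear receptor that acts on respiratory chain genes, fell by 0.55 at 7 g/kg (adjusted p = 0.0278). Polg2, the accessory subunit of the mitochondrial DNA polymerase, and Tfb1m, a mitochondrial rRNA methyltransferase, fell by 0.80 (adjusted p = 0.00143) and 0.50 (adjusted p = 0.0116). The coactivator gene Ppargc1a stood at −0.38 (adjusted p = 0.277), Tfam, which packages mitochondrial DNA, at −0.31 (adjusted p = 0.205) and Nrf1 at −0.08 (adjusted p = 0.86).

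**Figure D4:**
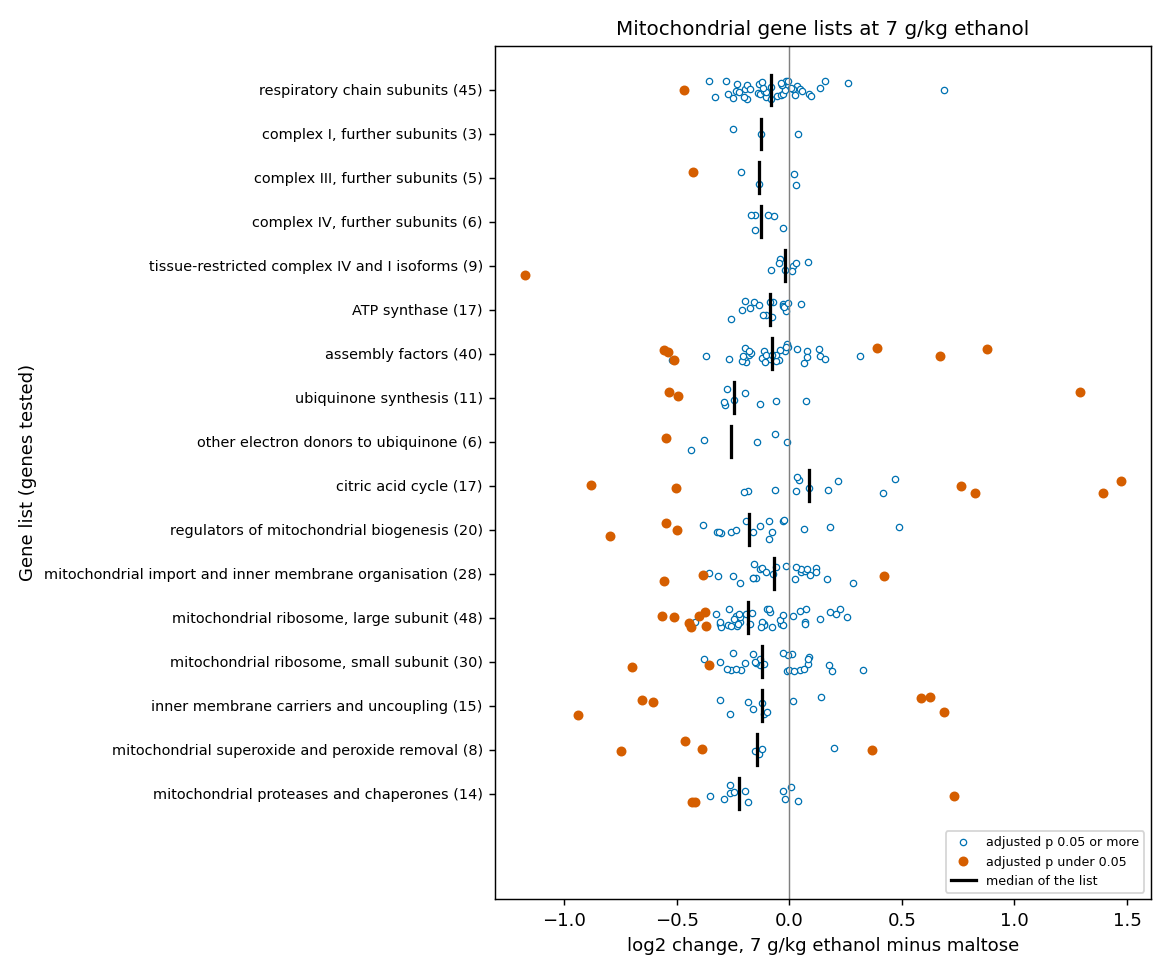
Log2 change at 7 g/kg ethanol minus maltose (x axis) of each tested gene (points, filled where the adjusted p was under 0.05) in the 45 respiratory chain subunits (top row) and 16 other mitochondrial lists, with the median of each list (bars). The subunits and the 17 ATP synthase genes lie close to 0, and the 17 citric acid cycle genes spread widest to the right.

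Markers of liver cell types moved beside these lists. Ratios were summed on each array over the markers with a usable spot there. The sums of different arrays may thus cover different numbers of markers, and their ranges are rough. The summed linear ratio of 9 hepatocyte markers was 9.51 to 11.2 on maltose arrays, 13.5 to 16 at 5 g/kg and 14 to 18 at 7 g/kg, with 5 markers higher and 1 lower at 7 g/kg and 8 of 9 well above background on all 10 arrays. The sum of 7 neutrophil markers was 5.79 to 6.72, 5.62 to 6.82 and 8.07 to 8.91, with S100a8 and S100a9 higher at 7 g/kg. S100a8 was dim, at percentile 20.8 and well above background on 6 of the 10 arrays. The sum of 8 endothelial markers was 6.26 to 6.86, 7.39 to 8.59 and 7.64 to 8.25, with 3 higher at 7 g/kg. Of 6 Kupffer cell markers 0 changed (5.25 to 5.73, 5.01 to 5.39 and 4.52 to 5.77; 1 at an unadjusted p under 0.05 at 7 g/kg). The sum of 8 lymphocyte markers was 6.44 to 7.2, 6.07 to 8.33 and 7.51 to 8.42, with 2 higher at 7 g/kg, and that of 7 skeletal muscle and heart markers 4.23 to 5.89, 4.66 to 6.55 and 5.95 to 6.91, with Tnnt3 higher at both doses. Stellate cell, cholangiocyte and exocrine pancreas sums overlapped between 7 g/kg and maltose arrays, and 0 of their 7, 6 and 6 markers passed at 7 g/kg, where 4, 2 and 0 had an unadjusted p under 0.05 (limma). Their part in the subunit values was not tested.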

How the data were processed

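Total RNA of fresh liver was extracted with Trizol, made into cDNA and coupled to dyes, per the labels. Per the file headers, spots were read by Agilent Feature Extraction 11.5.1.1, and its deposited median intensities of spot and local background in each channel were the starting point here. Its processed intensity and its log10 ratio were also deposited for every spot and served as alternatives. A further deposited table, of the whole series, was read as log2 ratios of liver over reference from its values (slope 3.32 to 3.34 on the scanner's log10 ratio; column medians −0.073 to 0.076); whether it was centred is not given in the sources used here.

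In R 4.3.3 with limma 3.58.1, intensities were background corrected (normexp, offset 50) and loess normalised within each array, and spots of a probe were averaged. Of 45018 spots, control spots and spots marked as outliers were left out. Of 41174 probes, 24375 (59.2%) matched a symbol through the RefSeq annotation of GRCm38.p6, and 33512 were well above background in the liver channel on at least 3 arrays. Genes with fewer than 2 values in a group were not tested. All groups entered 1 fit of 3 group means (7 residual and 7.21 prior degrees of freedom), two-sided. The fit was also run on data simulated from the means and spread of the tested genes, which checks the code and not the results. The median SE of a subunit's log2 change at 7 g/kg was 0.106, against 0.128 over all genes; the number of arrays limits the precision.

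The members and lists were chosen with earlier results of these data known. Values on every array are given for the member with the smallest p in each complex and comparison and for members that passed. Outside the members, up to 2 passing genes a list with the smallest p were named, only some of them with values by array. Ppargc1a, Nrf1, Tfam and Esrra were named whatever their result. Alternatives changed the correction, normalisation, channel, source of the values, filters, probe choice, empirical Bayes settings, weights, blocks and threshold, and left out each array. Promoter motifs were found by text search on both strands.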

Additional observations from a re-analysis of the deposited data

How the results depend on the processing

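The counts of subunits passing at 5 g/kg and between the doses were 0 under all 26 alternatives. At 7 g/kg the count was 1 and ranged from 0 to 5: 0 on the liver channel alone and with slide as a block; 2 with no background correction, with median centring, with the scanner's processed signals, with the series table, with probes well above background on all 10 arrays and with array weights; 3 with probes averaged and with robust moderation; and 5 at an adjusted p under 0.10. Leaving out 1 array gave 0 to 2, with 0 without the 3rd maltose or the 2nd 7 g/kg array. Ndufa6 passed in 22 of 26 alternatives (−0.58 to −0.40, adjusted p 0.008 to 0.216). Several of these could not change its estimate of −0.469, as it has 1 probe and the 5 g/kg arrays do not enter that estimate. Nor could a threshold of 0.10 fail a gene that passed at 0.05. The count is thus a poor guide to how firm the call is. The median change at 7 g/kg was −0.16 on the liver channel alone and −0.018 within slide 2, and −0.117 to −0.031 without 1 array; at 5 g/kg it was −0.013 within slide 4, and −0.099 to −0.034 without 1 array. Between the doses it was −0.103 on the liver channel alone, where the median of all genes was −0.044, 0.049 within slide 2, and −0.056 to 0.000 without 1 array. The cause was not tested.

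Same-numbered arrays of 2 groups did not deviate together (r −0.204 to 0.197), so the numbers were not taken as pairs. With a replicate block 2 subunits passed at 7 g/kg, Ndufa6 and Ndufa8, and 0 at the other comparisons.

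Over all genes the counts of 992, 2357 and 410 (5 g/kg, 7 g/kg, 7 minus 5 g/kg) fell to 124, 521 and 38 on the liver channel alone, to 519, 1713 and 114 with the scanner's processed signals, to 585, 1806 and 139 with the series table, and to as few as 469, 1507 and 203 without 1 array.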

Other observations

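Of 48 tested genes of the large subunit of the mitochondrial ribosome, 7 fell and 0 rose at 7 g/kg (median −0.182), and 2 fell at 5 g/kg (median −0.126). Of all genes, 9.03% changed and 4.36% fell at 7 g/kg, and the lists here were not tested as sets. Mrpl14 fell at both doses, by 0.51 at 7 g/kg (adjusted p = 0.00407) and 0.48 at 5 g/kg (adjusted p = 0.00915), and Mrpl17 fell by 0.56 at 7 g/kg (adjusted p = 0.00792). Of 30 small subunit genes 2 fell and 0 rose at 7 g/kg (median −0.122), with Mrps14 lower by 0.70 (adjusted p = 0.00797). Mrps28 fell at 5 g/kg by 0.48 (adjusted p = 0.00954) and stood at −0.16 at 7 g/kg (adjusted p = 0.429). Of 28 genes of protein import and inner membrane organisation 1 rose and 2 fell at 7 g/kg (median −0.065). Chchd3, of the cristae junction complex, fell by 0.38 (adjusted p = 0.0186), and Timm44, of the import motor, fell at 5 g/kg by 0.48 (adjusted p = 0.0123).

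Inner membrane carriers moved both ways, with 3 of 15 higher and 3 lower at 7 g/kg (median −0.121). Slc25a20, which carries acylcarnitines into mitochondria, had −0.47, −0.51 and −0.60 at 7 g/kg against 0.56, 0.44 and 0.24 in maltose and fell by 0.94 (adjusted p = 0.000128). Slc25a1, the citrate carrier, rose by 0.59 at 7 g/kg (adjusted p = 0.00328) and stood at −0.18 at 5 g/kg, and the difference between the doses passed (0.76, adjusted p = 0.0014). Of 14 protease and chaperone genes 1 rose and 2 fell at 7 g/kg (median −0.222). Clpx, the unfoldase of the matrix ClpXP protease, rose by 0.73 at 7 g/kg (adjusted p = 0.0018) and 1.13 at 5 g/kg (adjusted p = 0.000107). Hspd1, the matrix chaperonin, was lower at 7 than at 5 g/kg by 0.44 (adjusted p = 0.0299). Of 8 genes that remove superoxide and peroxide 1 rose and 3 fell at 7 g/kg (median −0.143), among them Txnrd2, mitochondrial thioredoxin reductase, by 0.75 (adjusted p = 0.00516) and Gpx4 by 0.39 (adjusted p = 0.025).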
